A study of Mus musculus with 4 samples.

Results

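Solute carriers are membrane proteins that move nutrients, ions and metabolites across the plasma membrane and the membranes of organelles. The solute carriers with a measurable signal in mouse intestinal epithelium were chosen by their signal: all array probes whose gene symbol begins with Slc and a digit and whose mean over the 4 arrays of the deposited normalized table was at least 200 were taken. The carriers Slc51a, Slc51b, Slc10a2, Slc5a1, Slc2a2, Slc2a5 and Slc12a2 were left out of the set. This gave 175 probes for 143 genes, of 462 solute carrier probes for 319 genes at any level and of 25697 probes in all. The level was used to choose the genes and is not a result. The rule takes the mean over both groups and not their difference, but it was written with earlier results of these data known, and 6 carriers reached the level through 1 group alone.

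The cells came from C57BL/6 mice in which tamoxifen had activated a Cre recombinase driven by the villin (Vil1) promoter and so deleted floxed Csnk1a1 from the gut epithelium. Csnk1a1 encodes casein kinase 1 alpha, which marks beta-catenin for destruction. Both groups carried this deletion and both received tamoxifen (120 mg/kg, 2 daily injections, cells taken 5 days after the last one): 2 arrays held Ifnar1+/+ RNA and 2 held Ifnar1-/- RNA. Ifnar1 encodes a chain of the type I interferon receptor, and the Ifnar1-/- line carries its loss in every cell and not only in the gut. The titles call the Ifnar1+/+ group wild type, although its genotype label holds the Csnk1a1 deletion, and the crossing protocol writes Ifnar1+/+ for both groups, so the groups follow the titles and genotype labels. No source used here gives the age at sampling, the sex, or separate animals for the arrays of a group. The p-values therefore measure only the spread between these arrays, which may be technical.

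The tissue label reads colon, whereas the protocol takes the middle part of the small intestine. All 6 small intestine genes of the check list that the array holds were above background on every array. Of 5 colon genes it holds, 0 were so on every array, and 3 (Aqp8, Hoxb13 and Hoxd10) were so on none. Ifnar1 and Csnk1a1 have 1 probe each, with detection p-values of 0.30075 to 0.90226 and 0.24436 to 0.72932, so neither was above background on any array and neither checks the genotype labels. Probes above background numbered 11234 to 11954 per array, and between 174 and 175 of the 175 solute carrier probes were among them. All 143 genes passed the filter on dim probes, and Slc15a2 alone was not above background on 1 array, Ifnar1+/+ array 2. The number of arrays limits the precision.

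In the small intestine, carriers in the apical brush border take up digested food, often driven by sodium or protons, and a different set in the basolateral membrane passes it to the blood. These carriers belong mostly to the mature absorptive enterocyte of the villus, while dividing crypt cells use another set to feed growth. Carriers of the mitochondria and the Golgi apparatus serve every cell.

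Brush border carriers were lower on the Ifnar1-/- arrays than on the Ifnar1+/+ arrays by the mean, and carriers tied to growth were higher, but no single gene passed the test. Of 20 apical carriers in the set, 18 had a lower mean in the Ifnar1-/- group, with a median log2 difference of -0.89 (Ifnar1-/- minus Ifnar1+/+ throughout). Of 13 basolateral carriers, 10 had a lower mean, with a median of -0.45. Of 10 carriers tied to growth, 9 had a higher mean, with a median of 0.30. The 103 carriers on none of these 3 lists were split almost evenly, 53 lower and 50 higher, with a median of -0.08. All 3 lists were drawn up with earlier results of these data known, and 3 genes stand on both the basolateral and the growth list. Slc36a1 of the apical list reached the level of 200 through the Ifnar1+/+ group alone. For Slc25a32 of the growth list, only the Ifnar1-/- group reached it.

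Over the whole set, 82 of 143 carriers (57.3%) had a lower mean in the Ifnar1-/- group, beside 47% of the 8442 genes tested. Among the 6321 tested genes whose probe reached the level of 200 the share was 46.5%. The median log2 difference was -0.17 for the carriers and 0.03 for all genes. It was -0.061 and 0.113 with median scaling, and -0.087 and 0.018 both without background correction and on the deposited values. In both groups 137 carriers reached the level, and 79 of these (57.7%) had a lower mean. Limma, with Benjamini-Hochberg adjustment over all 8442 genes, called 0 genes higher (0%) and 0 lower (0%), carriers included. The smallest adjusted p among the carriers was 0.4, for Slc36a1 and Slc6a4. At an unadjusted p under 0.05, 20 carriers were lower and 5 higher (17.5% together), beside 5.27% of all genes lower and 4.25% higher (9.52% together). With 2 arrays against 2, an exact permutation test of 1 gene cannot give a two-sided p below 0.33.

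In 74 carriers the Ifnar1-/- values lay wholly outside the Ifnar1+/+ values, 47 lower and 27 higher, or 51.7% of them, beside 43.4% of all genes (19.5% lower and 23.9% higher) and 46.3% of those at or above the level of 200. A difference of at least 1 log2 unit without overlap was found for 12 lower carriers and 1 higher, beside 2.19% and 0.734% of all genes. The lower ones were Slc5a11, Slc28a1, Slc5a8, Slc36a1, Slc27a4, Slc15a1, Slc6a19, Slc13a2, Slc26a2, Slc6a4, Slc7a15 and Slc7a9, and the higher one was Slc7a11. Of the 12 lower carriers, 8 are on the apical list. Slc36a1 and Slc26a2, both among the 12, reached the level of 200 through the Ifnar1+/+ group alone, so the rule itself favoured their direction. These counts depend on the background step: on the deposited values, as without background correction, 4 lower carriers (Slc13a2, Slc27a4, Slc6a19 and Slc5a8) and 0 higher ones differed by 1 or more without overlap. Of the 13 carriers, 6 differed over 1.5 times less without background correction. On the deposited values these 6 stood at -0.589 (Slc36a1), -0.50 (Slc26a2), -0.770 (Slc15a1), -0.864 (Slc28a1), -0.898 (Slc5a11) and 0.680 (Slc7a11).

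**Figure D1:**
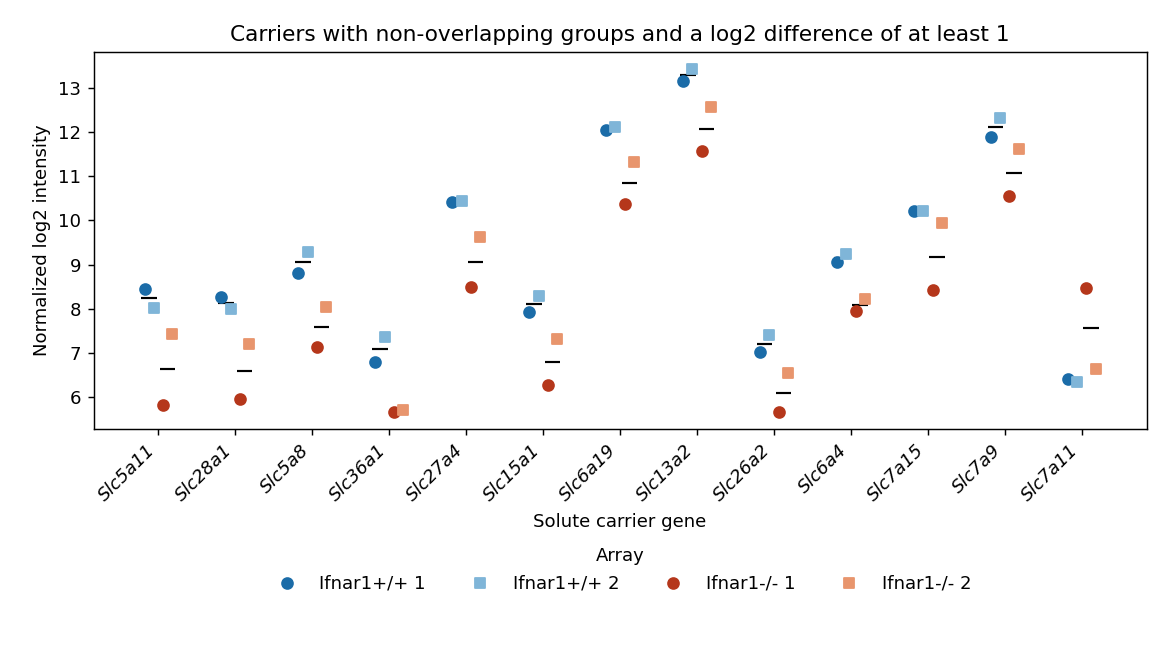
Normalized log2 intensity (vertical axis) of the 13 solute carriers whose groups did not overlap and differed by at least 1 log2 unit, with 1 point per array and bars at the group means. For 12 of them both Ifnar1-/- arrays lie below both Ifnar1+/+ arrays, array 1 lower than array 2, and for Slc7a11 both lie above, array 1 far more than array 2.

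The 2 Ifnar1-/- arrays were not alike. They lay over 1 log2 unit apart for 29 carriers (20.3%), beside 7.38% of all genes, while the Ifnar1+/+ arrays lay as far apart for 3 carriers (2.1%), beside 1.69%. In 26 of the 29 the lower value was that of array 1, a step seen in 4.51% of all genes, and in 3 it was the higher, as in 2.87% of all genes. Against the Ifnar1+/+ mean, the median carrier stood at -0.29 on Ifnar1-/- array 1 and 0.02 on array 2. The apical list stood at -1.49 and -0.27, the basolateral list at -0.81 and -0.09, and the growth list at 0.48 and 0.26. Without Ifnar1-/- array 1 the median of all carriers was thus 0.02 in place of -0.17. Each of the 3 lists kept its side of 0 on either array, but both arrays were set against the same Ifnar1+/+ mean. On array 2 the apical and basolateral medians were small beside the SD between arrays (0.636 and 0.363). There, 11 of 20 apical carriers lay below both Ifnar1+/+ arrays and 3 above both, and 8 of 13 basolateral carriers below and 3 above.

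Absorptive enterocyte markers were mostly lower and proliferation genes higher by the mean, while the other cell type lists varied in direction. Which Ifnar1-/- array lay lower also varied between lists. Of 18 absorptive enterocyte genes tested, of 20 with a probe, 17 had a lower mean, with medians of -1.28 and -0.24 on Ifnar1-/- arrays 1 and 2. The smallest p-values were those of the brush border peptidase genes Ace (-1.38 ± 0.29, SE) and Anpep (-1.86 ± 0.40). The list's summed linear intensity was 207538 and 192553 in the Ifnar1+/+ group against 93580 and 174649 in the Ifnar1-/- group; Fabp1 and Fabp2 were not above background on any array. All 10 proliferation genes tested, of 13 with a probe, had a higher mean, with medians of 0.97 and 0.38, with Mcm7 at 0.78 ± 0.22 and Mcm5 at 0.82 ± 0.25, and their sums were 7059 and 7741 against 14161 and 9610; Bub1 and Ccna2 were not above background. All 7 T cell and intraepithelial lymphocyte genes tested, of 12 with a probe, had a lower mean (sums of 1188 and 996 against 319 and 546; Cd3d -1.34 ± 0.22, Nkg7 -1.43 ± 0.27), with Cd2, Cd7, Cd8a, Gzma and Gzmb not above background. Paneth cell genes (4 tested, sums of 43194 and 34345 against 73229 and 56020; Lyz1 0.71 ± 0.25, Ang4 1.2 ± 0.52) were higher by the mean, and of 7 fibroblast and smooth muscle genes 6 were lower (3545 and 980 against 930 and 647; Col6a2 -1.25 ± 0.35, Sparc -1.58 ± 0.54), with Ifnar1+/+ array 1 far above the other 3 arrays. The 2 macrophage genes, Laptm5 (-1.47 ± 0.27) and Fcer1g (-0.99 ± 0.50), and the 1 B cell gene tested, Cd79b (-0.90 ± 0.23), had lower means. Enteroendocrine sums were lower (6621 and 6193 against 4479 and 5862, with Chga at -0.40 ± 0.24 and Sct at -0.37 ± 0.27). The medians of that list were 0.11 and -0.22 on Ifnar1-/- arrays 1 and 2, so only array 2 was low by the median. Goblet cell sums were on opposite sides on the 2 Ifnar1-/- arrays (44427 and 40370 against 58416 and 26162, with Clca1 at -1.34 ± 0.23 and Spink4 at 0.65 ± 0.48). Of the 6 genes that mark the small intestine, 4 had a lower mean, with medians of -0.91 and -0.20 on Ifnar1-/- arrays 1 and 2 and sums of 95962 and 80991 against 88528 and 100950. Among them were Fabp6, the bile acid binding protein of ileal enterocytes (-1.72 ± 0.26), and Sis, sucrase-isomaltase of the brush border (-0.79 ± 0.27). The colon genes Hoxd13 and Retnlb differed by -0.19 ± 0.32 and 0.63 ± 1.04. The part of these cell types, or of the stretch of gut sampled, in the carrier differences was not tested. In bulk RNA of this kind, fewer cells of a type and less RNA per cell cannot be told apart.

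**Figure D2:**
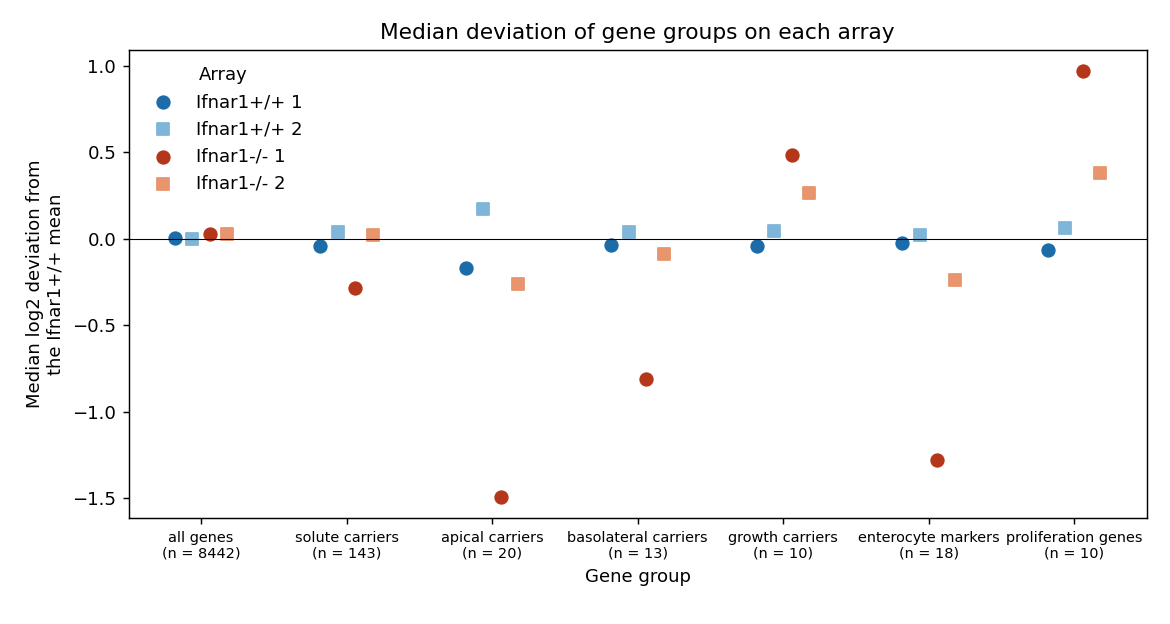
Median log2 deviation from the Ifnar1+/+ mean (vertical axis) of 7 gene groups on each of the 4 arrays, with 1 point per array. Apical carriers (-1.49 and -0.27) and enterocyte markers (-1.28 and -0.24) lie low on both Ifnar1-/- arrays and lowest on array 1, while growth carriers and proliferation genes lie above 0 on both.

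By substrate, the median log2 difference ran from -0.38 for carriers of monocarboxylates and other organic acids to 0.20 for carriers of fatty acids, choline and other lipids. It was -0.32 for sugars, -0.25 for metals and haem, -0.25 for other or unsettled substrates, -0.182 for amino acids and peptides, -0.185 for mitochondrial carriers and -0.18 for organic cations and anions. It was -0.06 for vitamins (0.041 with median scaling), -0.01 for inorganic ions (0.095 with median scaling), 0.03 for nucleosides and 0.13 for nucleotide sugars. The classes held 5 to 24 genes each, and each held both lower and higher members. On Ifnar1-/- array 2 the medians of lipids, nucleosides, nucleotide sugars, vitamins and organic ions lay above 0.

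**Figure D3:**
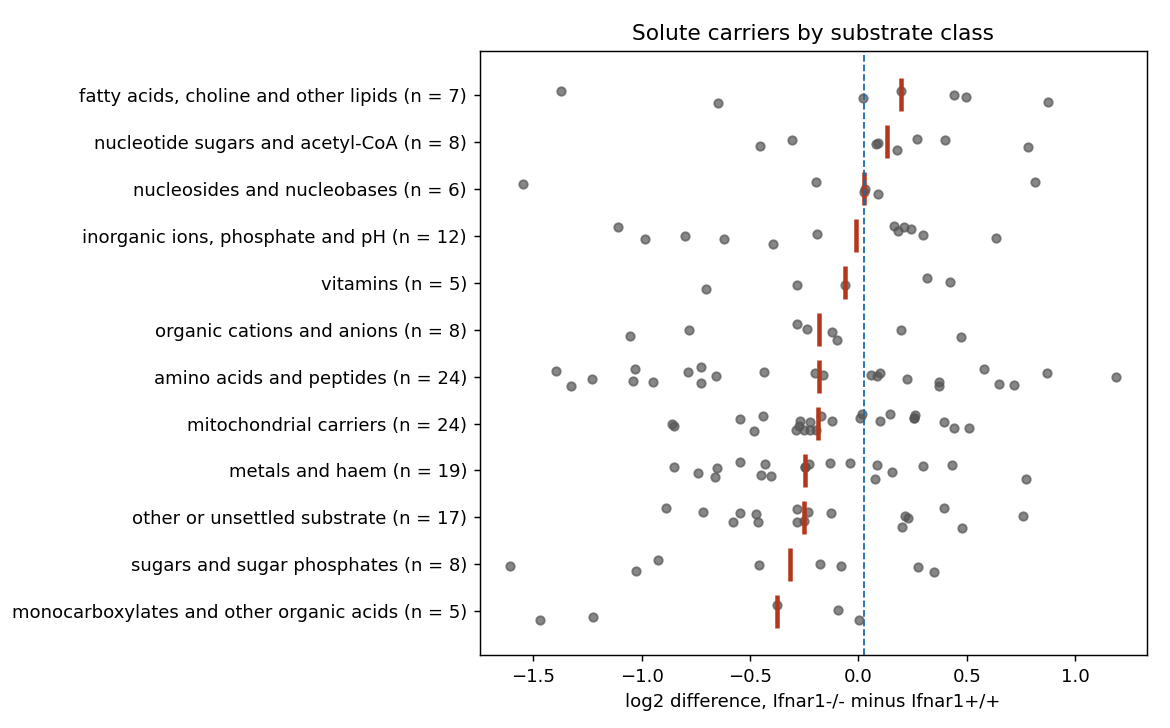
log2 difference (horizontal axis, Ifnar1-/- minus Ifnar1+/+) of each of the 143 solute carriers, 1 point per gene, by substrate class, with the class median as a thick bar and the median of all 8442 genes (0.03) as a dashed line. Amino acid carriers spread widest, from -1.40 to 1.19, and mitochondrial carriers stay within 1 log2 unit of 0.

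Carriers of amino acids and peptides numbered 24, of which 13 had a lower mean, 8 without overlap, and 11 a higher mean, 7 without overlap. Together 15 (62.5%) did not overlap, beside 43.4% of all genes and 46.3% of those at or above the level of 200. The smallest p of the whole set was that of Slc36a1, a proton-driven carrier of small amino acids. On the normalized log2 scale, which all array values below use, it measured 6.80 and 7.36 in the Ifnar1+/+ group (mean 7.08 ± 0.40, SD, n = 2) and 5.66 and 5.71 in the Ifnar1-/- group (5.69 ± 0.03, SD, n = 2). Both Ifnar1-/- values lay low and close together, and the log2 difference was -1.40 ± 0.27 (SE, limma; 2.63-fold lower; adjusted p = 0.4), but -0.589 on the deposited values. Its deposited means were 255.9 and 169.2, so it reached the level of 200 through the Ifnar1+/+ group alone, as did Slc26a2 (267 and 189.5) and Slc1a3 (205.3 and 195.6); Slc38a9, Slc25a32 and Slc15a2 reached it through the Ifnar1-/- group alone.

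Slc15a1 encodes PEPT1, the proton-driven carrier of dipeptides and tripeptides in the brush border. It measured 7.93 and 8.29 in the Ifnar1+/+ group against 6.27 and 7.30 in the Ifnar1-/- group, a difference of -1.33 ± 0.37 (SE). Slc6a19, the main sodium-driven carrier of neutral amino acids of the brush border, measured 12.04 and 12.10 against 10.36 and 11.33, or -1.23 ± 0.35. In both, the Ifnar1-/- arrays lay below the Ifnar1+/+ arrays and about 1 log2 unit apart from each other. Slc7a9, which exchanges cystine and basic amino acids across the brush border, measured 11.90 and 12.32 against 10.54 and 11.62 (-1.03 ± 0.39), and its second probe differed by -1.33. Slc7a15, a mouse carrier related to it, measured 10.22 and 10.22 against 8.43 and 9.93 (-1.04 ± 0.47). Ifnar1-/- array 2 stood only -0.29 from the Ifnar1+/+ mean of Slc7a15. Slc1a1, the glutamate and aspartate carrier of the brush border, had overlapping groups, at 8.50 and 9.31 against 8.57 and 7.79.

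Of the 5 basolateral amino acid carriers in the set, 4 had a lower mean and Slc38a2 differed by 0.09 ± 0.38 (SE). Slc7a7, the light chain of the exchanger that releases basic amino acids to the blood, measured 10.53 and 10.57 against 9.60 and 10.05 (-0.73 ± 0.25, SE), and its second probe differed by -1.21. Slc43a2, which lets neutral amino acids out, measured 7.33 and 7.41 against 5.93 and 6.91 (-0.95 ± 0.35). Both genes had non-overlapping groups. The exchanger gene Slc7a8 stood at 10.79 and 10.92 against 9.37 and 10.77, so that its difference of -0.79 ± 0.45 rested mostly on Ifnar1-/- array 1. Its second, dimmer probe measured 7.48 and 7.57 against 5.82 and 7.20 (-1.01), so there array 2 was lower as well. Slc16a10, which lets aromatic amino acids out, overlapped between groups (-0.66 ± 0.46).

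Of the 11 amino acid carriers with a higher mean, only Slc6a6 is on the apical list. Slc1a4, an exchanger of small neutral amino acids including serine, measured 8.53 and 8.65 in the Ifnar1+/+ group against 9.13 and 9.47 in the Ifnar1-/- group. Its groups did not overlap, and the difference was 0.72 ± 0.24 (SE; 1.64-fold higher). Slc7a5, which imports large neutral amino acids such as leucine, measured 10.05 and 10.51 against 11.19 and 10.66 (0.65 ± 0.29), while the gene of its heavy chain partner Slc3a2, whose probe was below the level of 200, differed by -0.63 ± 0.31. Slc38a9, the arginine sensor of the lysosome, measured 6.54 and 5.96 against 6.64 and 7.02 (0.58 ± 0.29). Slc6a6, the taurine carrier, stood at 12.24 and 12.59 against 12.48 and 12.54, with a 95% interval of the difference from -0.48 to 0.67.

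Slc7a11 had the largest positive difference of the set. It encodes the cystine and glutamate exchanger that supplies cysteine for glutathione. It measured 6.40 and 6.34 on the Ifnar1+/+ arrays, 8.48 on Ifnar1-/- array 1 and 6.64 on array 2. The groups did not overlap, but the difference of 1.19 ± 0.55 (SE) came mostly from array 1, which stood 2.11 above the Ifnar1+/+ mean against 0.27 for array 2. Among 15 tested genes of the amino acid starvation response, 10 had a higher and 5 a lower mean, with medians of 0.47 and 0.10 on the same arrays. The smallest p-values there belonged to Ddit4, an inhibitor of mTORC1 (0.62 ± 0.22), and Phgdh, the first enzyme of serine synthesis (0.56 ± 0.22).

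Promoter sequence from RefSeq (GRCm38.p6) was matched by symbol for 112 of the 143 carriers. The 250 bases before the start site were searched on both strands for 6 motifs. The site type of HNF4, a nuclear receptor of enterocytes, was searched as CAAAGTC. The letters used for HNF1, a homeobox factor of the same cells, were GTTAAT. For the zinc finger factors of the gut epithelium known as GATA factors the search string was AGATAA. The interferon-stimulated response element was searched as the core of GAAA repeated after a spacer of any 2 bases. The amino acid response element, bound by ATF4, was searched as TGATGCAA and the core of the antioxidant response element, bound by NRF2, as TGACNNNGC. Shown are the 3 lowest and 2 highest carriers among those with non-overlapping groups and 1 listed start site, and capitals mark motif matches. Slc5a11 (chr7:123214616-123214865, plus strand), Slc28a1 (chr7:81114549-81114798, plus strand) and Slc5a8 (chr10:88885742-88885991, plus strand) are the lower ones. Slc7a11 (chr3:50443614-50443863, minus strand) and Slc35a1 (chr4:34687439-34687688, minus strand) are the higher ones. Slc27a1 (0.87) and Slc29a1 (0.81) differed more than Slc35a1 (0.78) without overlap, but did not have exactly 1 listed start site and are not shown. The HNF4-type, GATA-type and antioxidant motifs were each found for Slc29a1.
Slc5a11: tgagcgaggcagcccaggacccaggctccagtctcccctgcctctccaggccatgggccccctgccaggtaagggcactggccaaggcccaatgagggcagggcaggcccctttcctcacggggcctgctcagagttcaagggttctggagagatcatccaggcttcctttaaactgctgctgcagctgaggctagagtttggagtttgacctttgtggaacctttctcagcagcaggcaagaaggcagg
Slc28a1: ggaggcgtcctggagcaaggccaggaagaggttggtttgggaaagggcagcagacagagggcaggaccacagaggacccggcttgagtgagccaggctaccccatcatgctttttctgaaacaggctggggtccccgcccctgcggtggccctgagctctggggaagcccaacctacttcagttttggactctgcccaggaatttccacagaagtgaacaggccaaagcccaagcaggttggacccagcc
Slc5a8: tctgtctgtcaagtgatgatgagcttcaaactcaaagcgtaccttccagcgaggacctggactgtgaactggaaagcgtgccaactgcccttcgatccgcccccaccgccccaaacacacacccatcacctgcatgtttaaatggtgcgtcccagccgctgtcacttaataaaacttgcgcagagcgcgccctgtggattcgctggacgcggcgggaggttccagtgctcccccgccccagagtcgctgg
Slc7a11: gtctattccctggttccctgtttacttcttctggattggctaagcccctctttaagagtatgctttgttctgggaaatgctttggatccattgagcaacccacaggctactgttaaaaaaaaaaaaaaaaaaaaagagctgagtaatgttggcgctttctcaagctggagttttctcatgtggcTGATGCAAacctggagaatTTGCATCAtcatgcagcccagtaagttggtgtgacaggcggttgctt
Slc35a1: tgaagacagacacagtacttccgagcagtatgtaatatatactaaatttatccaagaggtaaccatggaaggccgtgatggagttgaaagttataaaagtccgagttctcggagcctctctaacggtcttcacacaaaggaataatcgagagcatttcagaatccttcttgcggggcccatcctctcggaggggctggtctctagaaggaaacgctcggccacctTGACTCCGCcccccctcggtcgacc
The Slc7a11 window held 2 amino acid response elements in opposite orientation, beginning at positions -66 and -47 from the start site. The 112 carriers have 149 windows, since a gene can have several start sites. This motif was present in 2.01% of the carrier windows and 0.791% of all 32851 windows, and the carriers were Slc7a11, Slc7a7 and Slc50a1. The Slc35a1 window held 1 antioxidant response element core, a motif in 12.8% of the carrier windows and 10.2% of all windows. The windows of Slc5a11, Slc28a1 and Slc5a8 held none of the 6 motifs. The interferon-stimulated response element was present in 1.34% of the carrier windows, those of Slc25a15 and Slc37a1, and in 2.98% of all windows. For the HNF4-type, HNF1 and GATA-type motifs the shares were 4.03%, 5.37% and 8.05% of the carrier windows and 3.84%, 6.43% and 9.99% of all windows. The matches describe these letters only, and sites outside the windows were not searched.

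Carriers of monocarboxylates and other organic acids held 2 of the strongest lower differences among only 5 genes. Slc5a8, a sodium-driven carrier of short-chain fatty acids and lactate, measured 8.81 and 9.29 in the Ifnar1+/+ group against 7.14 and 8.04 in the Ifnar1-/- group, a difference of -1.47 ± 0.36 (SE; 2.76-fold lower). Slc13a2, the sodium-driven carrier of citrate and succinate, measured 13.15 and 13.43 against 11.57 and 12.57 (-1.22 ± 0.36). Neither overlapped, and in both the lowest value was that of Ifnar1-/- array 1. The other 3, Slc2a9 (a urate carrier, -0.38 ± 0.28), Slc16a6 and Slc17a5 (sialic acid export from lysosomes), overlapped between groups.

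Among 8 carriers of sugars and sugar phosphates, 6 had a lower mean. Slc5a11, a sodium-driven carrier of myo-inositol and glucose, had the lowest difference of the set on the normalized log2 scale. On the deposited values it stood at -0.898. There Slc13a2, Slc27a4, Slc6a19, Slc5a8, Slc7a9 and Slc26a6 were lower, at -1.198 to -0.924. On the normalized scale Slc5a11 measured 8.44 and 8.02 in the Ifnar1+/+ group against 5.82 and 7.43 in the Ifnar1-/- group (-1.61 ± 0.51, SE). Its groups did not overlap, although the Ifnar1-/- arrays stood at -2.42 and -0.80 from the Ifnar1+/+ mean. Slc5a9, a sodium-driven carrier of mannose and glucose, measured 9.79 and 10.14 against 8.03 and 9.84 (-1.03 ± 0.55), and Slc5a4b, of the same family, 9.06 and 8.51 against 6.73 and 8.99. The groups of these 2 genes overlapped, since only Ifnar1-/- array 1 was low. Slc37a1, a sugar phosphate carrier of the endoplasmic reticulum, differed by -0.46 ± 0.23 without overlap. Slc2a1, the glucose carrier GLUT1, overlapped between groups (0.27 ± 0.26).

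Nucleoside carriers included 1 strong lower and 1 strong higher difference among 6 genes. Slc28a1, a sodium-driven carrier that concentrates pyrimidine nucleosides from the gut lumen, measured 8.27 and 7.99 in the Ifnar1+/+ group against 5.96 and 7.21 in the Ifnar1-/- group (-1.55 ± 0.42, SE; 2.92-fold lower). Slc29a1, the equilibrative carrier that lets nucleosides pass down their gradient and feeds salvage for DNA synthesis, measured 8.30 and 8.02 against 8.83 and 9.12 (0.81 ± 0.25; 1.76-fold higher). Neither gene's groups overlapped, and for Slc29a1 both Ifnar1-/- arrays stood above both Ifnar1+/+ arrays by similar amounts. Slc28a2, the purine counterpart of Slc28a1, was at 6.32 and 7.43 against 5.98 and 7.81, with a 95% interval from -1.49 to 1.54. Slc23a4, a carrier of nucleobases, was at 9.27 and 9.49 against 8.67 and 9.71 (-0.19 ± 0.37).

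Of 7 lipid carriers, 2 had a lower and 5 a higher mean. Slc27a4, the fatty acid transport protein of enterocytes, measured 10.43 and 10.44 against 8.50 and 9.63 (-1.37 ± 0.38, SE; 2.59-fold lower). Slc44a4, which carries choline and thiamine pyrophosphate, measured 10.42 and 10.61 against 9.90 and 9.84 (-0.65 ± 0.23). For both, the Ifnar1-/- arrays lay below, and for Slc44a4 they were close together. Slc27a1, an insulin-responsive relative of Slc27a4 best known from muscle and fat, measured 6.01 and 6.93 against 6.99 and 7.69 (0.87 ± 0.39), its nearest values almost meeting.

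Ion carriers numbered 12, with 6 lower and 6 higher. Slc26a2, a sulphate carrier, measured 7.02 and 7.40 against 5.66 and 6.54 (-1.11 ± 0.34, SE). Slc26a6, an exchanger of chloride with bicarbonate and oxalate in the brush border, measured 11.58 and 11.65 against 10.02 and 11.24 (-0.98 ± 0.40). Both had non-overlapping groups. Slc12a8, a member of the cation-chloride family whose substrate is debated, was higher by the mean, at 11.11 and 11.07 against 11.89 and 11.55 (0.63 ± 0.24). It is 1 of 4 carriers in the set on chromosome 16, which also holds Ifnar1; the others are Slc7a4, Slc15a2 and Slc25a1, and 1 of the 4, Slc25a1, had a lower mean.

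Of 19 carriers of metals and haem, 13 had a lower mean, 7 of them without overlap. In all, 9 (47.4%) had groups without overlap, close to the 43.4% of all genes and 46.3% of those at or above the level of 200. Slc39a14, an importer of zinc, manganese and iron, measured 8.12 and 8.06 against 6.85 and 7.62 (-0.85 ± 0.30, SE), and its second probe differed by -0.67. Slc41a2, a magnesium carrier, measured 7.84 and 7.89 against 6.90 and 7.35 (-0.74 ± 0.25). Slc30a10, a manganese exporter, differed by -0.54 ± 0.22. These 3 lay below the Ifnar1+/+ arrays on both Ifnar1-/- arrays. Slc48a1, a haem carrier of endosomes and lysosomes, was on the other side, at 8.18 and 7.97 against 9.13 and 8.57 (0.77 ± 0.27; 1.71-fold higher).

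Slc39a4, Slc40a1 and Slc11a2, which carry zinc or iron, were far lower on Ifnar1-/- array 1 than on the other 3 arrays. Slc39a4, the zinc importer of the brush border, measured 13.55 and 13.54 on the Ifnar1+/+ arrays, 12.40 on Ifnar1-/- array 1 and 13.38 on array 2 (-0.65 ± 0.35, SE). Its second, dimmer probe measured 7.05 and 7.55 against 5.75 and 6.90 (-0.98), so there array 2 was lower as well. Slc40a1, ferroportin, which exports iron to the blood, measured 11.51 and 11.47 against 10.58 and 11.60, and Slc11a2, which imports iron at the brush border, 8.59 and 8.52 against 7.54 and 8.72. By the brightest probe of each of the 3 genes, array 1 stood -0.91 to -1.14 from the Ifnar1+/+ mean and array 2 stood -0.16 to 0.16 from it. Slc30a1 and Slc30a7 did not show this step: Slc30a1, the zinc exporter of the plasma membrane, measured 7.64 and 8.51 against 7.33 and 7.50, and Slc30a7, which loads zinc into the Golgi apparatus, stood at -0.25 and -0.24 from the Ifnar1+/+ mean. Of 15 other genes of iron and zinc handling, 7 had a lower and 8 a higher mean; the zinc-sensing transcription factor Mtf1 differed by -0.77 ± 0.26 and the metallothionein gene Mt2 by 1.02 ± 0.49, with 7.98 on array 1 and 6.43 on array 2.

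**Figure D4:**
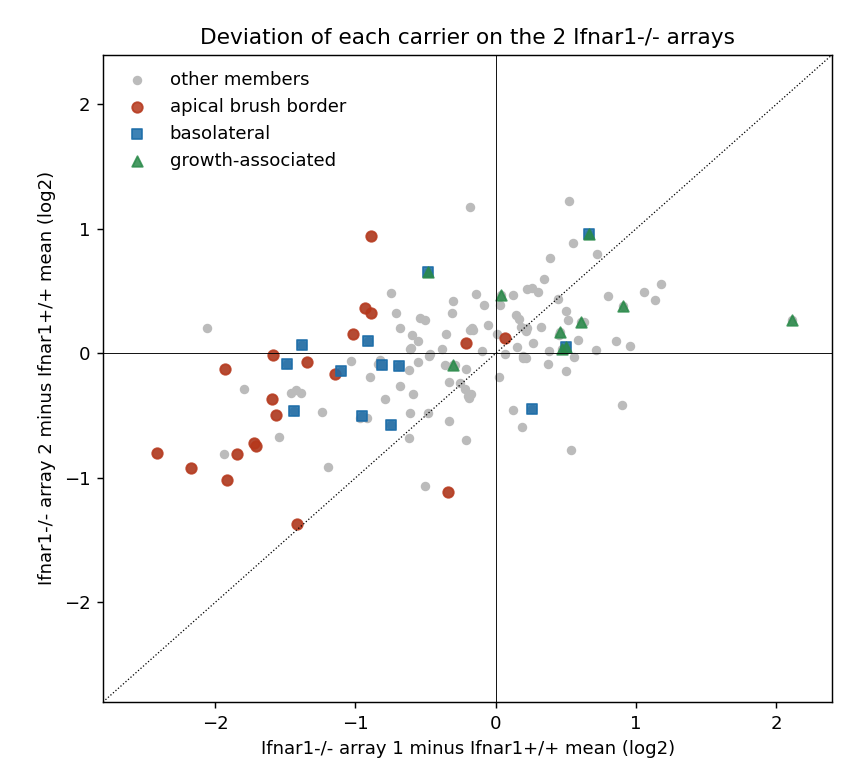
Deviation of each of the 143 solute carriers from the Ifnar1+/+ mean, in log2 units, on Ifnar1-/- array 1 (horizontal axis) and array 2 (vertical axis), 1 point per gene; the dotted line marks equal values. Most apical carriers lie left of 0 and above the dotted line, lower on array 1 than on array 2, and most growth-associated carriers lie right of 0.

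Among organic ion carriers, Slc6a4, the serotonin carrier that clears serotonin released in the gut wall, had the second smallest p of the set. It measured 9.05 and 9.23 in the Ifnar1+/+ group against 7.94 and 8.23 in the Ifnar1-/- group (-1.05 ± 0.24, SE; 2.08-fold lower; adjusted p = 0.4). The Ifnar1-/- arrays were close together, both below the Ifnar1+/+ arrays. Slc22a4, a carrier of ergothioneine, measured 7.16 and 7.55 against 6.85 and 6.29 (-0.78 ± 0.29), with array 2 the lower, whereas Slc22a5, the carnitine carrier, overlapped at 11.87 and 11.95 against 10.98 and 12.27. Slc17a4, an organic anion carrier, differed by 0.47 ± 0.26.

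Of 5 vitamin carriers, 0 had an unadjusted p under 0.05. Slc52a3, the riboflavin importer of the brush border, measured 12.48 and 13.11 against 11.45 and 12.73 (-0.70 ± 0.45, SE). Slc19a2, a thiamine carrier, measured 9.76 and 10.01 against 10.39 and 10.23, the only non-overlapping vitamin carrier (0.42 ± 0.23). Slc19a1, the reduced folate carrier, which also imports cyclic dinucleotides in human cells, differed by 0.32 ± 0.25. Slc46a1, the folate importer of the brush border, was uneven in both groups, at 10.28 and 9.27 against 8.89 and 10.10.

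Mitochondrial carriers, with 24 genes, were the least spread class by quartiles among those of over 10 genes, from -0.28 to 0.17, and 0 had an unadjusted p under 0.05. Of them, 14 had a lower mean, 11 without overlap, and 10 a higher mean, 3 without overlap. Groups without overlap thus made up 58.3% of the class, beside 43.4% of all genes and 46.3% of those at or above the level of 200. Slc25a45 and Slc25a34, 2 carriers with little settled function, had differences of -0.85 ± 0.37 and -0.86 ± 0.38 (SE), each chiefly on Ifnar1-/- array 1. Slc25a11, which exchanges oxoglutarate for malate, measured 10.41 and 10.54 against 9.99 and 9.99 (-0.48 ± 0.22), low by the same amount on both arrays. Its second probe in the set measured 8.62 and 8.44 against 8.12 and 8.42 (-0.26), so there array 2 lay only just below Ifnar1+/+ array 2. Slc25a5, an ADP/ATP carrier, measured 14.42 and 14.52 against 14.17 and 14.38, with a 95% interval from -0.74 to 0.35. Slc25a28, an iron importer of mitochondria, overlapped between groups (0.26 ± 0.28).

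In the class of nucleotide sugar and acetyl-CoA carriers, 6 of 8 genes had a higher mean. Slc35a1, the CMP-sialic acid carrier, measured 8.73 and 9.46 against 10.24 and 9.53 (0.78 ± 0.36, SE). Its groups did not overlap but almost met, and those of its second probe overlapped, at 6.09 and 6.85 against 7.60 and 6.06 (0.36). Slc35b4 differed by 0.40 ± 0.22 and Slc35b1 by -0.45 ± 0.26, each without overlap, and Slc35c1, the GDP-fucose carrier, by 0.18 ± 0.23 with 13.18 on 1 array of each group.

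Among the 17 genes with another or unsettled substrate, Slc9a3r1 encodes a scaffold of the brush border that anchors carriers and is itself no carrier. It measured 12.62 and 12.75 against 11.77 and 12.17 (-0.72 ± 0.25, SE), low on both Ifnar1-/- arrays. Slc23a3, related to vitamin C carriers, measured 8.38 and 7.89 against 8.86 and 8.93 (0.76 ± 0.26). Slc46a3, a lysosomal carrier tied to the export of muramyl dipeptide, measured 11.32 and 11.86 against 10.13 and 11.27, a difference of -0.89 ± 0.41.

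Carriers with a known tie to interferon or to microbial and immune signal molecules gave no common direction: of 6 in the set, 2 had a lower and 4 a higher mean. Slc15a4, the histidine and peptide carrier of endolysosomes needed for Toll-like receptor signalling in plasmacytoid dendritic cells, measured 7.51 and 7.50 against 7.67 and 7.79 (0.22 ± 0.22, SE). Slc11a1, an iron and manganese carrier of phagosomes, overlapped at 9.60 and 9.57 against 9.50 and 9.98. The probes for Slc15a3 and Slc46a2 were not above background on any array.

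Of 27 genes with several probes in the set, 24 had probes of 1 direction and 3 (11.1%) of opposite direction (Slc30a7, Slc35b3 and Slc38a2), beside 34.4% of all 2009 genes with several kept probes and 28.6% of the 1352 genes with several probes at or above the level of 200. The nearest probes to the level of 200 were those of Slc1a3 (200.5) and Slc25a32 (203.3) inside it, and a probe of Slc25a12 (198.5) and a further one of Slc25a11 (196.6) outside it. The 43 tested solute carriers below the level were split into 21 lower and 22 higher, with a median of 0.05.

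Other transport genes were counted beside the carriers, and 0 of them passed the test. Of 16 partners and driving pumps, 8 had a lower mean; the smallest p-values were those of the potassium channel gene Kcnk5 (-0.78 ± 0.28, SE) and the sodium pump subunit gene Atp1b1 (-0.61 ± 0.25), which supplies the gradient for sodium-driven uptake. Of 20 ABC transporters, 13 had a lower mean, with a median of -0.22 and with Abcg5, which returns sterols to the lumen, at -0.70 ± 0.28 and Abcc2 at -0.50 ± 0.25. Of 26 ion-pump and vacuolar ATPase subunits, 17 had a lower mean, Atp6v0a2 among them (-0.63 ± 0.22). Of 6 organic anion carriers of the Slco family, 3 were lower and 3 higher, with Slco3a1 at 0.59 ± 0.23 and Slco2b1 at -0.55 ± 0.24. The water channel genes Aqp7 and Aqp1 stood on opposite sides, at -1.21 ± 0.34 and 0.75 ± 0.22. Of the carriers left out of the set, 4 of 5 tested had a lower mean, with the bile acid exporter subunit genes Slc51b and Slc51a at -1.26 ± 0.26 and -1.03 ± 0.32.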

How the data were processed

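RNA of intestinal epithelial cells (freed with 5 mM EDTA for 30 min at 4 °C, per the labels' protocols) was hybridised to 4 bead arrays for mouse genes (Illumina), 2 for each genotype, all on 1 chip, so no slide or batch could be fitted. The deposited raw intensity of each probe is a bead summary; the submitters' processing notes name GenomeStudio 1.8. The deposited detection p-values rate each signal against background. The authors' deposited normalized intensity values are linear, with equal quartiles on every array; no source used here names the method. They chose the members and served as an alternative. Their differences were nearly those of quantile normalization without background correction (Slc13a2 -1.198 in both, Slc5a8 -1.053 and -1.051). These alternatives are therefore not separate checks. No column was left unused.

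Raw intensities went through neqc in limma 3.58.1 (R 4.3.3), which corrects background from the detection p-values, adds an offset (16), normalizes by quantiles and takes log2; the offset shrinks the differences of dim genes. Kept probes had a detection p under 0.05 on 2 or more of the 4 arrays (11884 probes), and the brightest kept probe stood for its gene, giving 8442 genes. Gene symbols are those of the platform annotation, which names none for 1719 probes and several for 0. All 143 members were found in RefSeq. All 4 arrays entered lmFit and eBayes without covariates (2 residual degrees of freedom, prior 4.54), two-sided. The p-values were adjusted over all genes by the method of Benjamini and Hochberg. Values after ± without a label repeat the standard error (SE), and intervals are 95%. The fit was tested on simulated data with equal spread in both groups. The arrays differ from that setting, with 7.38% of genes over 1 log2 unit apart in the Ifnar1-/- group and 1.69% in the Ifnar1+/+ group. Figures were drawn with matplotlib 3.10.9.

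The members, the substrate classes and the gene lists were chosen with earlier results of these data known. Named carriers are the 3 of each class with the smallest p, those whose groups lay apart by 1 log2 unit or more in the mean without overlap, the 5 brightest, those tied to interferon or microbial molecules, and the 2 probes on each side of the level; each further list gives the 2 genes with the smallest p. All other carriers in the text were chosen after their values were seen. The class of 2 genes, Slc66a1 and Slc66a2, was corrected after a wrong default for their family was noticed. Numbers shared by arrays of both groups did not pair them (correlation of their deviations -0.05 over all genes).

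Alternatives covered background, offset, scaling, the deposited values, the detection filter, the choice of probe, the spread model, a replicate block, leaving out each array, other levels for membership (150 and 400) and an adjusted p under 0.1.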

Additional observations from a re-analysis of the deposited data

How the results depend on the processing

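Limma called 0 carriers with each array left out in turn, and 0 genes in all under every alternative with 4 arrays. With an array left out it called 0 to 14 genes (5 without Ifnar1+/+ array 1, 14 without Ifnar1+/+ array 2, 0 without either Ifnar1-/- array), the lone array being assumed to vary like the other group. Leaving out arrays gave 71 to 88 carriers with a lower mean, 55 to 72 with a higher one, and a carrier median of -0.287 (without Ifnar1-/- array 2) to 0.018 (without Ifnar1-/- array 1); counts without overlap were not computed there. The list medians ran from -1.492 to -0.265 (apical), -0.812 to -0.09 (basolateral) and 0.262 to 0.484 (growth). Class medians ran from -0.368 to -0.012 for amino acids, -0.168 to 0.21 for lipids, -0.214 to -0.042 for ions, -0.555 to -0.02 for metals, -0.205 to -0.087 for mitochondrial carriers, -0.618 to -0.251 for organic acids, -0.324 to 0.159 for nucleosides, 0.138 to 0.201 for nucleotide sugars, -0.505 to 0.192 for organic ions, -0.466 to -0.003 for other substrates, -0.486 to -0.045 for sugars and -0.21 to 0.175 for vitamins. Carriers at an unadjusted p under 0.05 numbered 9 to 49 lower and 2 to 11 higher (9 and 2 without Ifnar1+/+ array 2, 49 and 11 without Ifnar1-/- array 2). With at least 1 of the arrays left out, the sign turned for 46 of 143 carriers. Of those named by rule, these were Slc46a1 (-0.89 to 0.326, above 0 without Ifnar1+/+ array 1, at 0.224, or Ifnar1-/- array 1), Slc23a4 (-0.713 to 0.325, above 0 without Ifnar1-/- array 1), Slc25a28 (-0.032 to 0.555, below 0 without Ifnar1-/- array 1), Slc11a1 (-0.085 to 0.391, below 0 without Ifnar1-/- array 2) and Slc1a3 (-0.589 to 0.189, above 0 without Ifnar1-/- array 2 or Ifnar1+/+ array 2, at 0.038). Of others in the text, Slc22a5, Slc40a1, Slc11a2, Slc16a10 and Slc5a4b stood above 0 without Ifnar1-/- array 1, Slc38a2 below 0 without array 2, Slc15a2 and Slc6a6 below 0 without an Ifnar1+/+ array, and Slc28a2, Slc16a6 and Slc17a5 on both sides of 0.

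Carriers that differed by 1 or more without overlap fell from 12 lower and 1 higher to 4 and 0 without background correction or on the deposited values, and to 8 and 0 with an offset of 50. With median scaling 9 carriers were higher at an unadjusted p under 0.05. Median scaling gave 0.095 for ions, -0.107 for mitochondrial carriers and 0.201 for nucleotide sugars, with the median of all genes at 0.113. The mean of a gene's probes gave -0.191 for organic acids and 0.085 for nucleotide sugars, and probes taken singly gave -0.367 for amino acids and 0.079 for ions. A level of 400 left fewer carriers (54 lower, 34 higher, 48 without overlap, 7 lower and 0 higher by 1 or more, 11 lower at an unadjusted p under 0.05) and gave -0.226 for lipids, -0.19 for ions, -1.345 for organic acids, 0.309 for nucleosides and 0.222 for nucleotide sugars; a level of 150 gave 2 higher by 1 or more and -0.057 for mitochondrial carriers. The cause of these shifts was not tested. The other 319 counts and medians under the alternatives stayed within 1.5 times (counts) or 1 SD between arrays (medians). These included the carrier median at -0.061 with median scaling and -0.087 without background correction. That SD came from the same 4 arrays and grows with the gap between the Ifnar1-/- arrays, so it hardly checks leaving an array out. The apical median, at -1.492 to -0.265 with an array left out, stayed within its SD of 0.636. The basolateral median, at -0.812 to -0.09, stayed within 0.363. The replicate block called 0 genes and changed no call, but it leaves fewer residual degrees of freedom. With 2 arrays in each group it cannot change a mean difference, so its 82 lower carriers were fixed in advance. The slide could not be a block, since all arrays shared 1 chip.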
